A study of Mus musculus with 16 samples.

Results

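Of 40796 regions of open chromatin set against each other in Nrp1 high and Nrp1 low cells, 8745 (21.4%) were distal intergenic regions within 50 kb of a transcript start. They are the regions that the authors' deposited table annotates as distal intergenic and places at most 50000 bases from the nearest start. Another 1171 distal intergenic regions lay farther away. The distance to the nearest start ranged from 3002 to 49999 bases with a median of 12783, and 98.98% of the regions were 400 bases wide. By strand of that gene, 5194 lay upstream and 3551 downstream of that start. The start can be that of any annotated transcript of the gene, also one inside the gene body. A distance given here therefore need not be the distance to the gene's promoter. The regions share 5770 nearest genes, of which 3865 have 1 such region and 91 have 5 or more. Regions with the same nearest gene are not replicates of each other.

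The cells came from the spleens of 7-day-old wild-type C57BL/6 mice (C57BL/6J in the RNA protocol), and the labels name no treatment for either group. Cells were sorted by the surface level of Nrp1, the neuropilin that helps semaphorins and VEGF signal, into Nrp1 high and Nrp1 low fractions. The labels give the cell type of all 16 samples as myeloid derived suppressor cells, while the protocol calls the sorted cells monocytes. Descriptions of the RNA samples write M_MDSC with Nrp1_pos for the high and Nrp1_neg for the low fraction. ATAC-seq, in which a transposase cuts accessible DNA, was run on 50000 cells per library with 5 libraries per fraction. RNA-seq was run on 80000 cells per library with 3 libraries per fraction. The labels speak of pooled RNA and leave unsaid if each library was a different animal, so the spread behind each p-value may be technical. Nrp1 is the one gate marker the labels name.

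Distal intergenic open chromatin is where many enhancers lie, stretches of DNA that bind transcription factors and can act on a promoter some distance away. In monocytes and their precursors such elements are bound by lineage factors such as PU.1, C/EBP, RUNX, IRF and AP-1 proteins, and they are known to differ more between related cell types than promoters do. The nearest gene is not always the gene an enhancer acts on, so the nearest gene named here is a position and not a target.

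Sequence could be shown where a RefSeq promoter window (250 bases before to 50 after an annotated start, GRCm38.p6) overlaps a region. This holds for 139 of the 8745 regions, and 105 have a RefSeq start inside them although the deposited annotation places the nearest start farther away. Of the 61 windows that overlap a region by at least 250 bases, 5 belong to called regions. These are printed here, with 1 more of 249 bases at a region of very low FDR, because they are the called regions of which most of the sequence could be read. Each is given 5′ to 3′ on the strand of the RefSeq transcript, and only the part inside the region is shown. Capitals mark matches, on either strand, to 16 searched words, among them RUNX (TGTGGT), C/EBP (TTGCNNAA), IRF (GAAANNGAA), NR4A (AAAGGTCA), PU.1 (GAGGAAGT), AP-1 (TGANTCA) and the E-box CACGTG. The first, nearest to Plekhs1 and at the start of Gm46657, lies at chr19:56454941-56455240 on the minus strand in a region of positive fold.
Plekhs1 region: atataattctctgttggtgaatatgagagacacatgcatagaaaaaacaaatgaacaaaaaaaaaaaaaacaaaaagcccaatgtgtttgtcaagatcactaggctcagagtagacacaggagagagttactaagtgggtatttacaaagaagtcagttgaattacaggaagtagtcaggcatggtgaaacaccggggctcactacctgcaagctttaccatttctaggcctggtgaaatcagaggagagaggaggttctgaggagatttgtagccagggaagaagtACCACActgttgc
The next is nearest to Gm32679 (chr16:29847809-29848057, minus strand) and lies in a region of negative fold.
Gm32679 region: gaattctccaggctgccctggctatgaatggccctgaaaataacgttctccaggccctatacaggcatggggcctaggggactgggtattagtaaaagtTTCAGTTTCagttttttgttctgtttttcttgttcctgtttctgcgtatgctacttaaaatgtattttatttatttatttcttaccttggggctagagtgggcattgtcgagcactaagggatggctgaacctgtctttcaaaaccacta
The third is nearest to Gm5547, at the start of Gm46838 (chr3:105825804-105826098, minus strand), also of negative fold.
Gm5547 region: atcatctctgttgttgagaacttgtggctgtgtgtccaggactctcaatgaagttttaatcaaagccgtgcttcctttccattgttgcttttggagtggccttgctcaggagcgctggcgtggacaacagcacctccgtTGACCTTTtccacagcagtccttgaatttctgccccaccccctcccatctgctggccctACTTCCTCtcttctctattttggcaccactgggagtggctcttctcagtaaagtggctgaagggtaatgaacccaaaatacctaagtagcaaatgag
The fourth is nearest to Ccr7, a chemokine receptor of migrating leukocytes, at the start of Gm32249 (chr11:99168062-99168361, plus strand), also of negative fold.
Ccr7 region: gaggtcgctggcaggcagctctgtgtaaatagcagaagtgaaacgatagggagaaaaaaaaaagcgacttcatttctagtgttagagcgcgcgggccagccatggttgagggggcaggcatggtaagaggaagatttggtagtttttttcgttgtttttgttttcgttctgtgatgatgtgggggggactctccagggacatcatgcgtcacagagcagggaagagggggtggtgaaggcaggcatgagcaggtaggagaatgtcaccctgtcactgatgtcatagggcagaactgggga
The fifth is nearest to Calm3, which encodes calmodulin, at the start of Gm32630 (chr7:16932100-16932369, minus strand), also of negative fold.
Calm3 region: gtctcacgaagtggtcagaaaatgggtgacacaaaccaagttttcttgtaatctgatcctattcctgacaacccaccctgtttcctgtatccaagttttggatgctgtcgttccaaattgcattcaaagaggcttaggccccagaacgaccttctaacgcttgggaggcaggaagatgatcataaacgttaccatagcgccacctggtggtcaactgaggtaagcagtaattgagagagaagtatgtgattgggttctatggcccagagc
A sixth stretch, nearest to Gm22808 at the start of Gm41485 (chr16:87612372-87612655, minus strand), lies in a region of positive fold and carries 2 C/EBP words.
Gm22808 region: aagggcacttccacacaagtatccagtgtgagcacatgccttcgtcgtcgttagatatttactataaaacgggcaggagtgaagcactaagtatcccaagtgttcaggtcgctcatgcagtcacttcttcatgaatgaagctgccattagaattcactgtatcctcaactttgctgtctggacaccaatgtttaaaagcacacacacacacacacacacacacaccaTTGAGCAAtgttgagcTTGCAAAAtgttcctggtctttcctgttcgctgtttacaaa

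The 6 regions had log2 folds of 1.93 (Plekhs1, FDR 0.000260), -1.005 (Gm32679, FDR 0.000513), -1.52 (Gm5547, FDR 0.00144), -1.08 (Ccr7, FDR 0.00799), -0.78 (Calm3, FDR 0.0238) and 0.55 (Gm22808, FDR 0.0301). Counted from the first printed base, the Plekhs1 stretch has a RUNX match at 288 to 293, the Gm32679 stretch an IRF match at 100 to 108, and the Gm5547 stretch an NR4A match at 140 to 147 and a PU.1 match at 199 to 206. The Gm22808 stretch has C/EBP matches at 228 to 235 and 244 to 251. None of the 16 words occurs in the Ccr7 and Calm3 stretches. Over the 34 RefSeq windows that lie wholly in these regions, the RUNX word occurred in 35.3% and the C/EBP word in 20.6%, against 16.8% and 10.8% of all 32817 RefSeq windows of the same 300 bases. The AP-1 word, which can overlap the searched MAF word TGCTGAC, occurred in 14.7% against 7.81%, and the E-box in 20.6% against 7.15%. The PU.1 word occurred in 5.88% against 3.2%, and the ETS word CCGGAAG in 11.8% against 8.86%. The MAF word occurred in 8.82% against 4.67%, and the NR4A word in 2.94% against 1.51%. The remaining words, those for EGR, CREB/ATF and NF-kB among them, were less frequent in these windows than in all. The GC box GGGCGGG occurred in 20.6% against 25.6%, the IRF word in 5.88% against 8.55%, and the CTCF word CCANNAGGG in 2.94% against 5.98%. The KLF word GGGTGTGG and the GATA word AGATAAG occurred in 0% against 3.56% and 3.05%. With 34 windows, each window is 2.94% of them. A word match is a description of the letters and shows no binding.

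At a deposited FDR under 0.05, 272 of the 8745 regions (3.11%) were called with a positive fold and 508 (5.81%) with a negative fold. Over all 40796 listed regions, 2.56% were called with a positive and 4.99% with a negative fold. The fold is the log2 fold of the authors' deposited table, and a positive value means more open in Nrp1 high as the comparison is named. No column of that table states the direction, so folds are given here by their sign. The deposited table gives 1 fold per region for the whole comparison and no value per library, so depth and the spread between libraries are unknown for each region, and no library could be left out. The sources used here do not say which of the 10 ATAC libraries entered the comparison.

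The fold distribution was shifted a little to negative values. The median log2 fold was -0.13, and 63.4% of the regions had a fold below 0, against -0.09 and 61.5% over all listed regions. The median size of the fold, regardless of sign, was 0.28, against 0.23 over all listed regions and 0.17 in promoter regions within 1 kb of a start. Negative calls were more numerous, but positive calls were larger. The median called fold was 1.04 for positive and -0.84 for negative regions. An absolute log2 fold of at least 1 was reached by 151 of the 272 positive and 152 of the 508 negative regions, and one of at least 2 by 23 and by 4. At a stricter FDR under 0.01, 120 positive and 144 negative regions remained past the threshold, so the positive share of the calls was 45.5% there and 34.9% at 0.05. The lowest FDR was 6.77e-09 among positive and 0.000136 among negative regions.

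**Figure D1:**
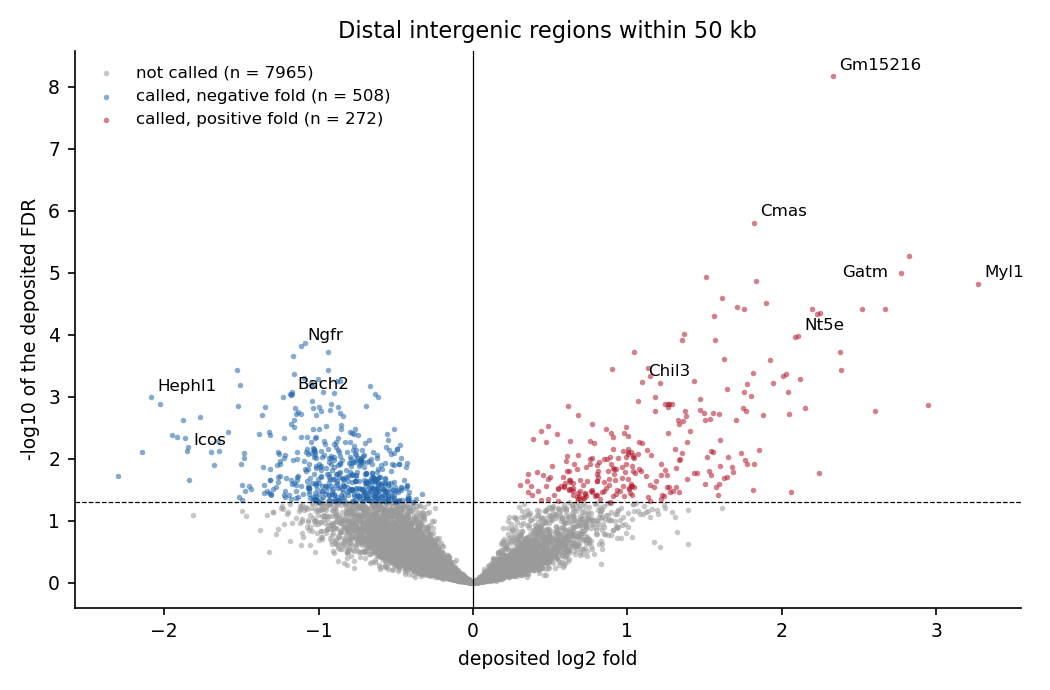
Each point is 1 of the 8745 distal intergenic regions within 50 kb, with the deposited log2 fold on the x axis and -log10 of the deposited FDR on the y axis. The dashed line is an FDR of 0.05, and named genes are the nearest genes of the labelled regions. The 508 called negative regions form a dense group near -0.84, while the 272 called positive regions reach farther out, to a fold of 3.27.

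By annotation class, the share called was about that of introns and above that of promoter regions within 1 kb of a start. Those promoter regions were called positive in 1.60% and negative in 3.64%, promoter regions at 1 to 3 kb in 2.50% and 5.80%, first introns in 3.16% and 6.36%, and later introns in 3.17% and 5.91%. Distal intergenic regions beyond 50 kb stood apart in sign, with 6.23% positive and 5.47% negative. No test was made of these shares, because regions share the libraries they were measured in. Within 50 kb the shares showed no steady trend with distance. The positive share was 3.42% at 3 to 5 kb, 2.32% at 5 to 10 kb, 3.12% at 10 to 20 kb, 3.39% at 20 to 30 kb, 4.62% at 30 to 40 kb and 3.11% at 40 to 50 kb. The negative share over the same bins lay between 5.60 and 6.73%. Upstream regions were called positive in 3.06% and negative in 6.07%, and downstream regions in 3.18% and 5.44%. Values at the 50 kb limit show no step. Regions just inside it had folds of -0.47 (Cxcr4) and 0.79 (Gm43576), and the 3 just outside it -0.70 (Gm28501), 0.07 (1700065J11Rik) and -0.15 (Gm19510), with none called.

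**Figure D2:**
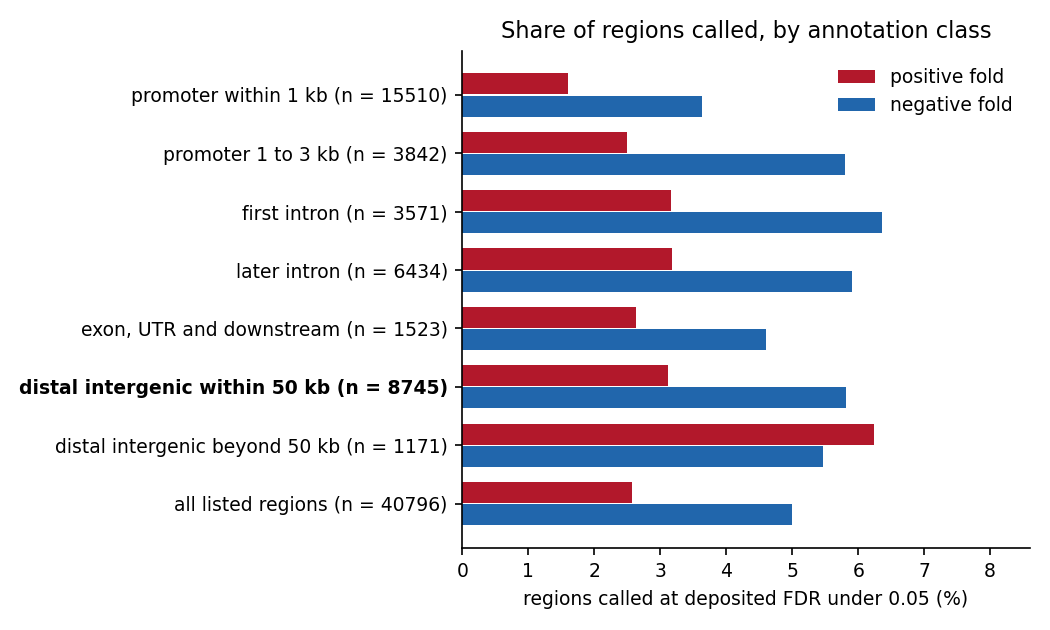
Bars give the percentage of regions called at a deposited FDR under 0.05, with positive fold in red and negative fold in blue, for each annotation class and for all listed regions. Distal intergenic regions within 50 kb (in bold) had 3.11% positive and 5.81% negative calls, and only the class beyond 50 kb had more positive than negative calls.

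Positive regions lay in more gene-poor DNA than negative ones. The median distance to the body of the nearest RefSeq protein-coding gene was 24.0 kb for positive, 17.8 kb for negative and 16.9 kb for uncalled regions. Coding genes named Gm or LOC with a number were left out of these measures. With these left out, no protein-coding gene lay within 100 kb of 18.4% of the positive regions, 11.8% of the negative and 10.2% of the uncalled. Read the other way, 5.42% of the 923 regions with no such gene were called positive, against 1.27% of the 1107 regions with 6 or more. The negative share fell less over the same classes, from 6.50 to 3.79%. The label distal intergenic held only in part against RefSeq. Of the 8736 regions on placed chromosomes, 1042 (11.9%) lay in a RefSeq long non-coding RNA, 227 in a protein-coding gene body and 7399 (84.7%) in no RefSeq gene.

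Folds of neighbouring regions were weakly correlated. The correlation of the folds of adjacent regions was 0.293 over 668 pairs less than 1 kb apart, 0.234 over 632 pairs at 1 to 5 kb, 0.209 over 1861 pairs at 5 to 20 kb, 0.121 over 2066 pairs at 20 to 100 kb and 0.0561 over 3495 pairs beyond 100 kb. The share of pairs with the same sign showed no such steady order, at 58.8, 62.0, 59.4, 58.1 and 54.96% over the same gaps. These are descriptions across regions that were measured in the same libraries. Where both neighbours were called, they had the same sign in 7 of 7 pairs under 1 kb, 7 of 10 at 1 to 5 kb, 24 of 25 at 5 to 20 kb, 12 of 14 at 20 to 100 kb and 18 of 28 beyond 100 kb. Likewise 43 nearest genes had at least 2 called regions of 1 sign, and none of these had a called region of the other sign. Another 7 nearest genes had regions called in both directions. Promoters followed their distal regions only weakly. Over 3560 regions whose nearest gene has a listed promoter region within 1 kb, the correlation of the folds was 0.0979. The promoters of genes nearest to negative regions had a median fold of -0.11 (15 called negative and 5 positive over 208 regions), and those nearest to positive regions a median of 0.00 (4 negative and 3 positive over 86).

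The region of lowest FDR was of positive fold and lay 22.9 kb upstream of Gm15216 on chromosome X (164840323 to 164840722), with a log2 fold of 2.33. Next came a region 9.9 kb downstream of the start of Cmas, the enzyme that activates sialic acid for transfer to glycans, with a log2 fold of 1.82 (FDR 1.57e-06). The largest positive fold, 3.27 (FDR 1.51e-05), lay 33.2 kb downstream of the start of Myl1, a myosin light chain of skeletal muscle whose RNA did not pass the count filter. Most of the other leading positive regions were nearest to predicted genes: Gm27452 (2.82), Gm36980 (1.51), Gm4412 (1.84, with Klf5 as the nearest coding gene), Gm6430 (1.90), Gm24212 (1.71), Gm6075 (2.94), Gm14706 (2.67) and Gm43905 (2.60). The regions at Gm24212, Gm6075 and Gm14706 have no coding gene within 100 kb, predicted genes left aside. Nt5e, which encodes CD73, an ectoenzyme that makes adenosine from AMP, had a positive region 19.7 kb upstream of its start, with a log2 fold of 2.11 (FDR 0.000107). Its RNA was low in all libraries, at 0.29, 0.67 and 0.83 CPM in Nrp1 low and 0.71, 0.89 and 1.69 CPM in Nrp1 high, with overlapping groups. Cxcl1, a chemokine that attracts neutrophils, had a positive region 9.1 kb upstream (1.01, FDR 0.00834), and its RNA did not pass the filter.

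Among genes with several positive regions, Gatm held the most. Gatm encodes glycine amidinotransferase, which uses arginine in the first step of creatine synthesis. All 3 of its regions on chromosome 2 were called, with log2 folds of 0.73 (FDR 0.0396), 2.77 (FDR 1e-05) and 1.61 (FDR 2.57e-05). They lay 25.7, 35.7 and 37.0 kb downstream of the nearest Gatm transcript start, and 21.8, 31.8 and 33.1 kb from its RefSeq body. The listed region at its promoter was not called and had a fold of 0.15. No test compared the distal regions with the promoter. Other genes with 2 positive regions, named after their values were seen, were S100a11, a calcium-binding protein (0.80 and 1.81, and 1 more region of 1.04 with FDR 0.0541), Septin5, a filament-forming GTPase (1.18 and 1.82), Adamdec1, a secreted metalloprotease of the ADAM family (1.02 and 1.47), and Trat1, an adaptor of the T cell receptor (0.85 and 1.27). The Gatm promoter, from RefSeq, is shown because its distal regions were all called with 1 sign. It belongs to another transcript start than the one the distances above run from, and lies farther from the regions. The printed promoter has no match to the 16 words.
Gatm promoter (chr2:122611228-122611527, minus strand): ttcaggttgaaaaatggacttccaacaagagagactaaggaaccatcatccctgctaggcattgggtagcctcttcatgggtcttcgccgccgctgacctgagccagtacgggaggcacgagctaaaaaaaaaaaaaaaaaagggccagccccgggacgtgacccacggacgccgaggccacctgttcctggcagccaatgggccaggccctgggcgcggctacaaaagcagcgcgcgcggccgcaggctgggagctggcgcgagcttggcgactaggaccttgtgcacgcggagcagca

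The negative regions of lowest FDR were nearest to a mix of coding and predicted genes. They were C230066G23Rik (log2 fold -1.09), Ngfr, a neurotrophin receptor (-1.11), Gm6128 (-0.94), n-R5s172 (-1.16), Gm37719 (-1.53), Capza2, which caps actin filaments (-0.94), Gm28615 (-1.16), Zfp710, a zinc finger protein (-1.10), Gm32679 (-1.005) and Pdcd1, the inhibitory receptor PD-1 (-0.86). The largest negative folds were -2.30 (Gm49908, FDR 0.0190), -2.14 (Gm48662), -2.08 (Hephl1, a copper-containing ferroxidase), -2.03 (Igip), -1.95 (Coa4, a cytochrome c oxidase assembly factor) and -1.92 (Gm22587). Icosl, the ligand of the T cell co-stimulator ICOS, was the gene with the most negative regions. All 3 of its regions were called, at 13.6 kb (-0.44, FDR 0.0135), 22.9 kb (-0.62, FDR 0.0268) and 32.2 kb (-0.92, FDR 0.0336) downstream of its start. Its promoter region had a fold of the same sign, -0.41, and was not called. The distances run from another transcript start than that of the promoter shown here. The Icosl promoter, with matches to the KLF word GGGTGTGG and to the GC box in capitals, reads as follows.
Icosl promoter (chr10:78069118-78069417, plus strand): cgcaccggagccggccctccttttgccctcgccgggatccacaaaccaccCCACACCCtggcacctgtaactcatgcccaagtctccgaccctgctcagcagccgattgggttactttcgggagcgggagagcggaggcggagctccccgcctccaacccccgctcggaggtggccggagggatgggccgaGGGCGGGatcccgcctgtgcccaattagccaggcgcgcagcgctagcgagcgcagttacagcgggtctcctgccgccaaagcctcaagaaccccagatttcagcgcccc

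Several signalling genes, named after their values were seen, had 2 negative regions. Notch2, a receptor of cell fate decisions, had -1.07 and -0.79 among 4 regions, and Jak2, the kinase of many cytokine receptors, had -0.998 and -0.67 among 3. Dock10, a guanine nucleotide exchange factor, had -1.45 and -0.55, and Mta3, a subunit of the NuRD chromatin complex, had -1.25 and -1.19. Many regions at a gene did not mean many calls. Ccr1, a chemokine receptor of monocytes and neutrophils, had the most regions of any gene, 11, with folds from -0.41 to 0.58 and none called. Lrrc8d, a subunit of volume-regulated anion channels, had 9 regions, of which 2 were called negative (-0.48 and -1.59).

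**Figure D3:**
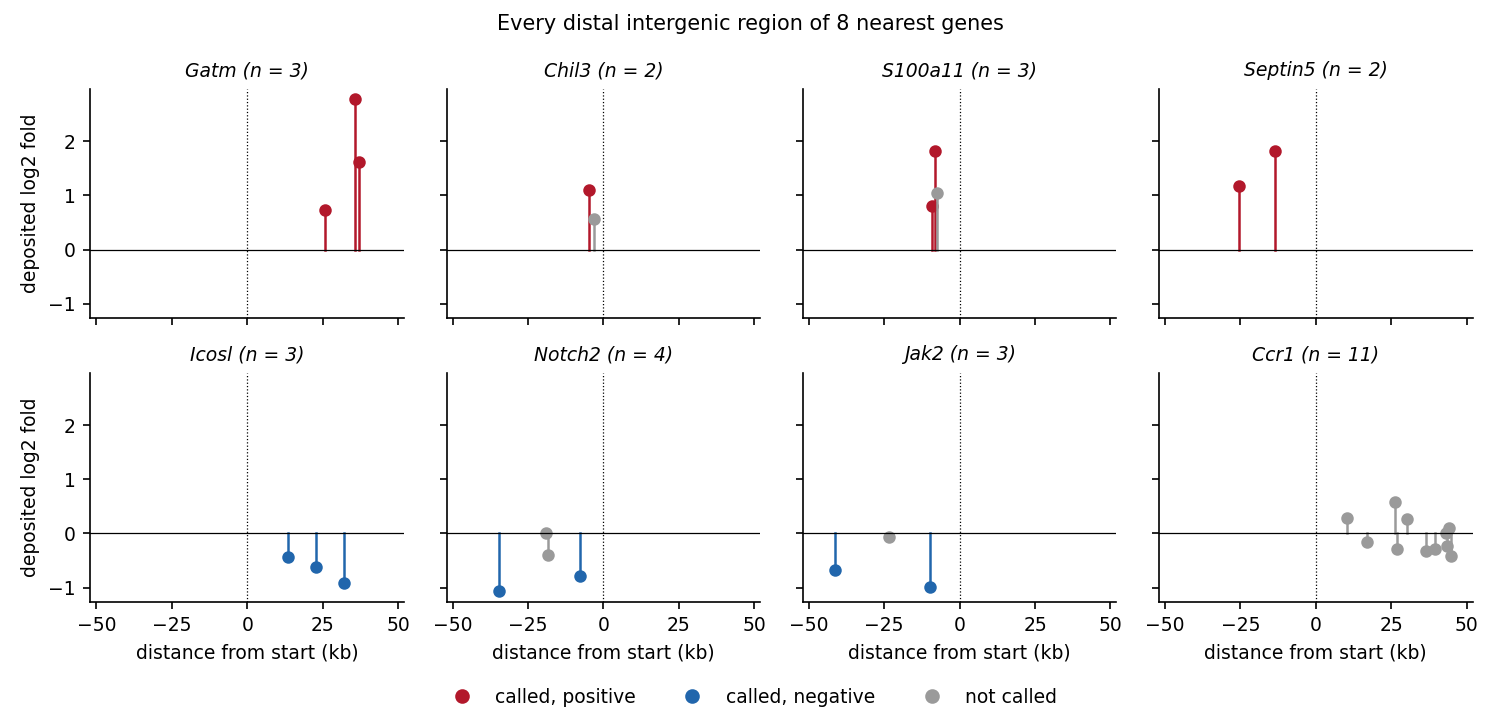
Each stick is 1 distal intergenic region, placed by its distance in kb from the nearest transcript start of its nearest gene (negative is upstream). The y axis gives the deposited log2 fold. Red and blue are regions called positive and negative, and grey regions were not called. All 3 Gatm regions are positive and all 3 Icosl regions negative, while none of the 11 Ccr1 regions was called.

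Genes of 25 lists for myeloid biology and for markers of other cell types held 326 of the regions, at 179 of 564 listed genes. Of these regions 25 (7.67%) were called negative and 3 (0.92%) positive, against 5.81% and 3.11% of all 8745, and their median fold was -0.15. The 3 positive regions were those of Chil3, Cxcl1 and Nt5e. Of the 21 regions at macrophage genes, 4 were called negative and 0 positive, with a median of -0.38. Among them were regions nearest to Adgre1, which encodes F4/80 (-0.59, FDR 0.0146), the scavenger receptor Marco (-0.65, FDR 0.0227) and the sialic acid receptor Siglec1 (-0.83, FDR 0.0278). Of 39 regions at myeloid transcription factors, 4 were called, all negative, among them those of the repressors Bach2 (-1.18, FDR 0.000936) and Bcl6 (-0.82, FDR 0.00785) and of Myc (-0.55, FDR 0.0395). For chemokines and their receptors, 3 of 45 regions were called negative, at Ccr7, at Cxcr4, which retains cells in bone marrow (-0.66, FDR 0.0121), and at Ccr2, through which monocytes leave it (-0.80, FDR 0.0329). The 3 called regions among 15 at p38 MAPK and mTORC1 genes were all negative. Of these, 2 were upstream of Map2k6, a kinase that activates p38 (-0.76, FDR 0.00737, and -0.51, FDR 0.0237). The other was nearest to Mapk14, which encodes p38 alpha (-0.58, FDR 0.0478). It lay 8.9 kb downstream of a transcript start inside the gene, and 2.3 kb from the gene's RefSeq body.

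Immediate early and NF-kB genes had 3 of 27 regions called negative, 2 at Bhlhe40 (-0.47 and -0.80) and 1 at Ier5 (-0.57). Pattern receptors had 2 of 28, both at Tlr13, a sensor of bacterial ribosomal RNA (-0.62 and -0.78). Non-classical monocyte genes had 2 of 19, at Pparg (-0.68) and Adgre4 (-0.77). Single negative calls stood at Sema4b, a semaphorin (-0.97, 1 of 16 regions at neuropilin and semaphorin genes), Itga4 (-0.41, 1 of 10 at adhesion genes) and Il6 (-0.83, 1 of 32 at cytokine genes). The Il6 region lies in the RefSeq body of Tyms. Of 4 regions at T cell genes, 2 were called, at Icos (-1.85) and Ctla4 (-0.65), and the Icos region lies in the RefSeq body of Icos. None was called among 6 regions at Kruppel-like factors, 9 at interferon-stimulated genes, 12 at primary granule genes, 7 at late neutrophil genes, 7 at dendritic cell and MHC class II genes and 5 at erythroid genes.

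RNA was read at the nearest genes. Total counts per library ranged from 23395363 to 35127433, and 15541 genes were tested. Nrp1 low replicate 1 stood apart, with a median correlation of log2(CPM + 1) with the other libraries of 0.938 against 0.963 to 0.973. Nrp1 itself stood at 20.1, 57.8 and 41.5 CPM in Nrp1 low and 97.3, 89.8 and 111 CPM in Nrp1 high. The groups did not overlap, as was the case for 20.3% of all genes tested, and the log2 fold of 1.32 (SE 0.36) did not pass the test (adjusted p = 0.259, edgeR's quasi-likelihood test with Benjamini-Hochberg adjustment). The monocyte genes Ly6c2 (2069 ± 503 CPM in low and 2018 ± 252 in high, SD, n = 3) and Csf1r (420 ± 46.6 and 482 ± 16.3) were abundant in both fractions, and the T cell gene Cd3e was near 2 CPM (2.11 ± 0.75 and 1.97 ± 0.59).

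At the subject genes of the study, distal regions were few. The only one of Nrp1, 22.4 kb upstream, had a fold of -0.60 (FDR 0.243). In introns of Nrp1, outside the class described here, 2 regions were called positive, with 1.47 (FDR 0.000351) and 1.50 (FDR 0.000833), and 1 negative, with -0.39 (FDR 0.0296). The region 4.1 kb upstream of Nos2, the inducible nitric oxide synthase, had -0.73 (FDR 0.132), and the 2 regions of Sema4a, a semaphorin, had 0.01 and -0.34, with none called. Klf4 and Mtor had no distal intergenic region within 50 kb.

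Of all 15541 genes, 105 (0.676%) were called lower and 1 (0.00643%) higher in Nrp1 high at an adjusted p under 0.05. Of the 2343 tested genes nearest to any of the regions, edgeR called 26 (1.11%) lower and 0 higher, with 220 (9.39%) lower and 99 (4.22%) higher at an unadjusted p under 0.05, against 6.72% and 4.50% of all genes tested. DESeq2 called 70 of them lower and 11 higher, of 312 and 81 over all genes. Genes nearest to a positive region numbered 249, of which 81 were tested. Of these, 5 (6.17%) were called lower, the median RNA log2 fold was -0.31 and 66.7% were below 0. Genes nearest to a negative region numbered 472, of which 205 were tested. In edgeR 0 of these were called, with 21 lower and 18 higher at an unadjusted p under 0.05, and DESeq2 called 5 lower and 1 higher. Their median was 0.16 and 40.5% were below 0. The 2053 tested genes with uncalled regions alone had a median of 0.01. Thus RNA log2 folds near positive regions leaned to lower and those near negative regions to higher values in Nrp1 high, opposite in sign to the fold of the region. Across 3608 regions at 2343 genes the correlation of fold and RNA log2 fold was -0.0911, and across the 317 called ones -0.256. Regions of 1 gene share the RNA value, and all share the libraries. Such a correlation was not particular to these regions. It was -0.119 in promoter regions within 1 kb, -0.113 in distal regions beyond 50 kb and -0.0945 in promoter regions at 1 to 3 kb. First introns had -0.0733, later introns -0.0631, and exon, untranslated and downstream regions 0.00914.

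**Figure D4:**
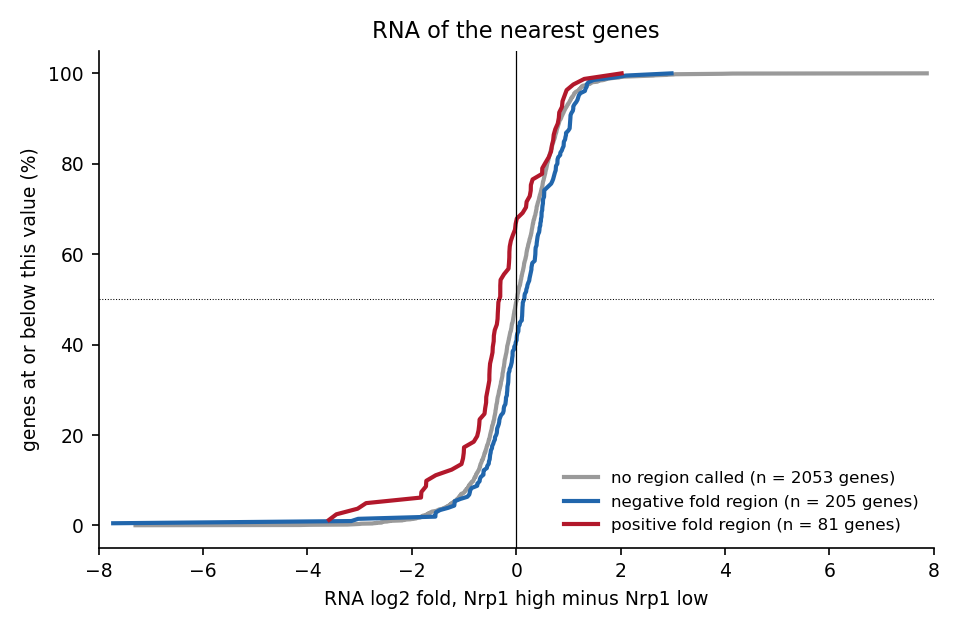
Each curve gives the percentage of nearest genes whose RNA log2 fold (Nrp1 high minus Nrp1 low, edgeR) is at or below the value on the x axis. Red is for the 81 tested genes nearest to a positive region, blue for the 205 nearest to a negative region and grey for the 2053 with no called region. The red curve lies to the left of the grey one around the median (-0.31 against 0.01), and the blue curve to the right (0.16).

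The number of calls rested on single libraries. Of the genes nearest to positive regions, 0 were called lower without Nrp1 high replicate 3, 2 without each of Nrp1 low replicate 3 and Nrp1 high replicates 1 and 2, 3 without Nrp1 low replicate 2 and 5 without Nrp1 low replicate 1. Of the genes nearest to any region, 26 were called lower with all libraries. This number was 0 without Nrp1 high replicate 3, 4 without Nrp1 high replicate 1 and 11 without Nrp1 high replicate 2. It was 29 without Nrp1 low replicate 1, 18 without Nrp1 low replicate 2 and 7 without Nrp1 low replicate 3. With the nearest RefSeq protein-coding gene body in place of the table's nearest gene, the median near positive regions was -0.06.

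The 5 genes with both a positive region and lower RNA were Chil3, Gatm, 4930438A08Rik, Plscr1 and Mgst2. Chil3, which encodes the chitinase-like protein Ym1, stood at 2845, 1789 and 2293 CPM in Nrp1 low and at 199, 238 and 199 CPM in Nrp1 high. The groups were far apart in every library, with a log2 fold of -3.45 (SE 0.26, adjusted p = 0.00416). Its region 4.9 kb upstream had a fold of 1.09 (FDR 0.000588), and a second one 3.1 kb upstream had 0.57 (FDR 0.0683). Gatm stood at 184, 111 and 115 CPM in Nrp1 low and at 31.3, 47.8 and 37.2 CPM in Nrp1 high. Its log2 fold was -1.82 (SE 0.27, adjusted p = 0.0295), beside 3 positive regions. 4930438A08Rik stood at 98.4, 78.7 and 86.5 CPM in Nrp1 low and at 10.6, 10.4 and 10.98 CPM in Nrp1 high (log2 fold -3.04, SE 0.21, adjusted p = 0.00416), with a region of 2.03 (FDR 0.000435).

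Plscr1, an interferon-inducible phospholipid scramblase, stood at 107, 62.3 and 61.4 CPM in Nrp1 low and at 19.1, 23.8 and 22.3 CPM in Nrp1 high. Its log2 fold was -1.82 (SE 0.28, adjusted p = 0.0310), with a region 27.4 kb upstream of 1.33 (FDR 0.00241) and another of -0.04. The first of these lies nearer to the body of Plscr5. Mgst2, which joins glutathione to leukotriene A4, stood at 74.2, 59.8 and 80.9 CPM in Nrp1 low and at 16.9, 23.6 and 24.3 CPM in Nrp1 high (log2 fold -1.73, SE 0.24, adjusted p = 0.0207). Its region of 0.77 (FDR 0.0350) lies in the RefSeq body of Mgst2, and another had -0.26. In each of the 5 genes every Nrp1 low library lay above every Nrp1 high library. Gatm and Plscr1 passed the threshold without Nrp1 low replicate 1 and in no other fit that left out a library, while Chil3 and 4930438A08Rik passed without each library in turn except Nrp1 high replicate 3.

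**Figure D5:**
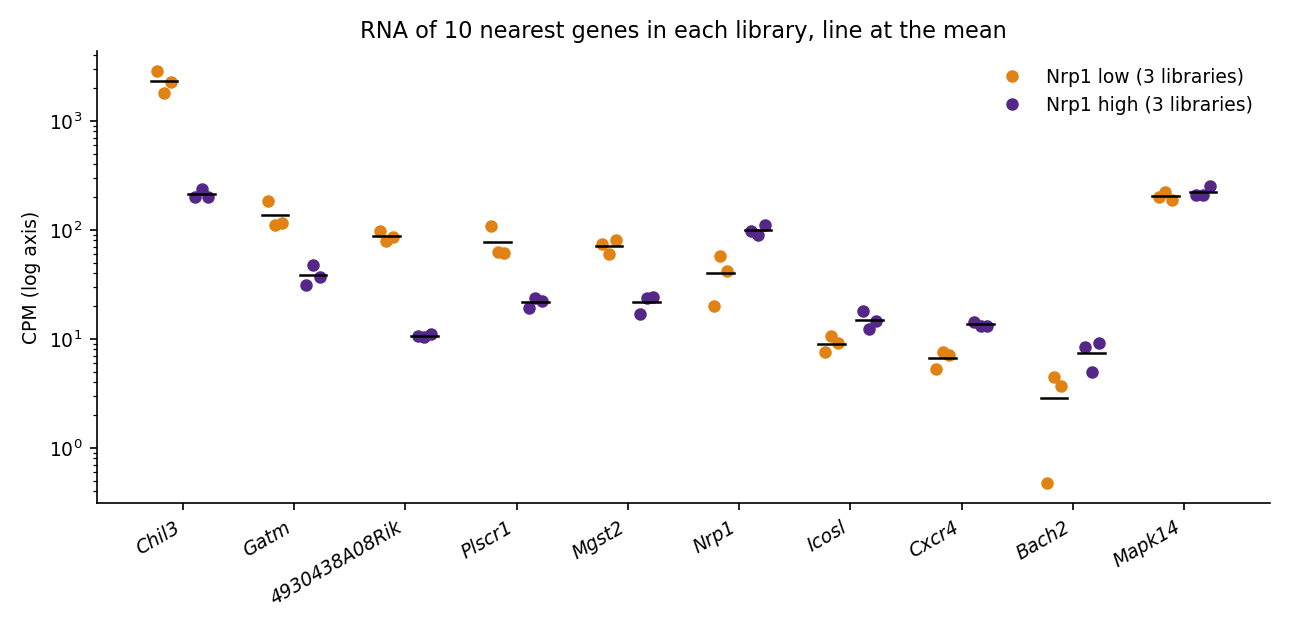
Points are CPM of single libraries on a log axis, for 10 nearest genes, with Nrp1 low in orange, Nrp1 high in purple and a line at the mean of 3 libraries. The 5 genes on the left, each with a positive region, are lower in every Nrp1 high library. Nrp1, Icosl, Cxcr4 and Bach2 are higher in every Nrp1 high library without passing the test. Groups did not overlap for 20.3% of all genes tested.

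The remaining genes with lower RNA had uncalled regions. The 26 genes together held 41 of the regions, with a median fold of 0.10. Of these, 7 (17.1%) were called positive and 0 negative, against 3.11% and 5.81% of all 8745. The 7 calls stood at 5 genes, with 3 of them at Gatm. Cebpe, a transcription factor of granulocyte maturation, had folds of 0.66 (FDR 0.0678) and 0.85 (FDR 0.0935) beside an RNA log2 fold of -2.47 (adjusted p = 0.0114). Fcnb, a ficolin of granulocyte precursors, had 0.61 and 0.28 beside -2.58 (adjusted p = 0.00460). The granule genes S100a8 and S100a9 had folds of 0.20 and -0.01 beside -2.74 and -2.99, so lower RNA also stood beside folds near 0. Some genes with lower RNA, named after their values were seen, had negative folds, none of them called: Slc6a12 (-0.64 and 0.20), Prodh (-0.62), Mapk13 (-0.56 and 0.03) and Cd9, with 5 of 5 regions below 0 (-0.40 to -0.0004). Outside the class, the 105 genes with lower RNA were nearest to 147 regions. Of these, 13 (8.84%) were called positive and 3 (2.04%) negative, against 2.56% and 4.99% of all listed regions. The 84 promoter regions within 1 kb among these held 9 (10.7%) and 2 (2.38%) of the calls, against 1.60% and 3.64% of all such promoter regions.

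Markers of granulocytes moved with these genes. Of 22 neutrophil secondary and tertiary granule genes, Chil3 among them, 14 were called lower and 0 higher, and their summed level ranged from 74122 to 116990 CPM in Nrp1 low and from 31124 to 40517 CPM in Nrp1 high. Of 18 primary granule and granulocyte progenitor genes, Cebpe and Fcnb among them, 12 were called lower, with sums of 15134 to 23343 CPM and of 4452 to 7609 CPM. Chit1 was at 0 in all 3 Nrp1 high libraries, while 21 of the 22 and all 18 genes had counts in every library. Megakaryocyte and platelet genes summed to 127 to 138 CPM and to 49.8 to 64.1 CPM, with 3 of 20 called lower. Over all 15541 genes tested, 0.676% were called lower and 0.00643% higher. Lower sums without overlap were not confined to these lists. Among others, NK and innate lymphoid genes summed to 181 to 239 CPM in Nrp1 low and to 68.8 to 103 CPM in Nrp1 high. Macrophage genes summed to 1484 to 1877 and to 1109 to 1245 CPM, and non-classical monocyte genes to 1208 to 1471 and to 912 to 1114 CPM. Classical monocyte genes summed to 11497 to 12209 CPM in Nrp1 low and to 13151 to 13322 CPM in Nrp1 high, with none of 20 called. In bulk samples fewer cells of a type and less RNA per cell cannot be told apart, and the part of these markers in the ATAC folds was not tested. The sign of the deposited folds rests on the name of the comparison, and the values near genes do not settle it. The Nrp1 intron regions of largest fold were positive, as was the Nrp1 RNA log2 fold. Of all listed regions at genes with lower RNA, however, 20 were called positive and 3 negative.

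Genes nearest to negative regions, of which edgeR called 0 and DESeq2 called 5 lower and 1 higher, lay on either side of 0 in RNA. Icosl stood at 7.50, 10.6 and 9.07 CPM in Nrp1 low and at 17.8, 12.4 and 14.4 CPM in Nrp1 high. The groups did not overlap, and the log2 fold was 0.72 (SE 0.28, adjusted p = 0.431). Cxcr4 stood at 5.25, 7.60 and 7.12 CPM in low and at 14.3, 13.2 and 13.1 CPM in high (log2 fold 1.03, adjusted p = 0.257), and Bach2 at 0.48, 4.47 and 3.66 CPM in low and at 8.32, 4.95 and 9.14 CPM in high (1.39, adjusted p = 0.454). Both were higher in all 3 Nrp1 high libraries, while groups did not overlap for 20.3% of all genes tested. Ccr2 did not overlap either, at 368, 628 and 393 CPM against 840, 675 and 914 CPM (0.81, adjusted p = 0.356). The scavenger receptor Marco went the other way, at 16.2, 9.40 and 10.8 CPM in low and at 4.53, 4.37 and 5.83 CPM in high (-1.30, adjusted p = 0.212). So did the log2 folds of Ccr7 (-0.94), Adgre4 (-0.75), Bhlhe40 (-0.63), Pparg (-0.53), Ier5 (-0.41) and Map2k6 (-0.36), none past the test. Of the 205 tested genes nearest to a negative region, 40.5% were below 0. Mapk14 (204 ± 16.7 and 222 ± 25.8 CPM) and Adgre1 (137 ± 13.4 and 121 ± 8.10 CPM, SD, n = 3) had overlapping groups, and neither passed the test.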

How the data were processed

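Chromatin was measured by ATAC-seq and transcripts by RNA-seq. For ATAC-seq the file is the authors' own comparison on GRCm38. Its log2 fold, p-value and FDR per region are used as the authors deposited them. The submitters' processing notes name BWA, MACS2, DiffBind, ChIPseeker, edgeR and DESeq2 without versions or roles. The labels point to a DESeq2 table, but the name of the deposited file says edgeR. How peaks were called and whether reads were shifted for the transposase is not given. Adjusting the deposited p-values anew by Benjamini-Hochberg changed the FDR by at most 0.00027. For RNA-seq the authors deposited estimated counts per gene. Those notes also name HISAT2 and StringTie, and strand is not stated, so overlapping and near-identical genes are uncertain.

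Regions were selected by annotation and distance in the deposited table, whose nearest genes are used (5752 of 5770 matched a symbol table). RNA was tested with edgeR 4.0.16 in R 4.3.3 (filterByExpr, TMM, robust quasi-likelihood F test, group as the only term, Benjamini-Hochberg over 15541 genes, called under 0.05), which was tested on simulated data. RNA levels are given as CPM (TMM-scaled), and RNA log2 folds as high minus low with a standard error (SE). Gene bodies and sequences are from RefSeq (GRCm38.p6). The nearest coding gene and the coding genes within 100 kb leave out genes named Gm or LOC with a number.

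The members and the gene lists were chosen with earlier results of these data known. Named regions are the 10 of lowest FDR and the 6 of largest fold per sign, genes with at least 3 called regions, the 3 of lowest p per list, those of Nrp1, Sema4a, Klf4, Nos2, Mapk14 and Mtor, those at genes called in RNA, and the 3 on each side of the 50 kb limit. Any other gene was chosen with its values in view, or is a called list member. Some named items are not reported here. Alternatives were other FDR and fold thresholds, a 20 kb limit, no sex chromosomes, 400-base regions, RLE factors, DESeq2 1.42.0, no filter, a replicate block, leaving out each RNA library and, added after the data were seen, the nearest RefSeq coding gene.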

Additional observations from a re-analysis of the deposited data

How the results depend on the processing

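The deposited table has no values per library, so the ATAC calls could be varied only by threshold and by choice of regions. Counts of positive and negative regions were 120 and 144 at FDR under 0.01, 423 and 888 at FDR under 0.1, and 151 and 152 with an absolute log2 fold of at least 1 added, so the positive share of the calls went from 34.9% to 45.5, 32.3 and 49.8%. With a limit of 20 kb, 176 of 6145 regions (2.86%) were positive and 345 (5.61%) negative. Without chromosomes X and Y, and with 400-base regions only, both counts stayed within 1.5 times. A search for the words in the central 200 bases of each region was not run, since no genome of the build was used here.

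Medians of RNA log2 folds kept their sign in every alternative. Near positive regions the median was -0.246 with no filter, -0.236 by DESeq2, -0.341 with genes within 20 kb, -0.0604 with the nearest RefSeq coding gene, and -0.369 to -0.233 when each library was left out. Near negative regions it was 0.262 with the nearest RefSeq coding gene and 0.107 to 0.218 when each library was left out. Genes called lower near positive regions were 8 by DESeq2, 3 within 20 kb and 0 to 5 when each library was left out, and near any region 70 by DESeq2 and 0 to 29. Over all genes tested, the median RNA log2 fold lay between 0.00334 and 0.0622 in these fits.

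Libraries of the same replicate number did not deviate alike from their group means. The correlations of deviations between the same numbers were -0.342, -0.394 and 0.032. With 3 libraries per fraction, these cannot show whether the numbers mark pairs. With a replicate block the median near positive regions was -0.334, and 0 genes were called lower near positive regions, 0 near any region and 0 over all genes, with 943 of all genes at an unadjusted p under 0.05. Over the alternatives the adjusted p of Gatm ranged from 2.18e-06 to 0.253 and that of Plscr1 from 2.91e-06 to 0.261, with 4 of 10 past the threshold for each, and Chil3 and 4930438A08Rik passed in 8 of 10.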
